A study of Mus musculus with 4 samples.

Results

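The Hox cluster genes were examined in primary mouse astrocyte cultures by RNA-seq. Members were taken as the protein-coding genes of the deposited table named *Hoxa*, *Hoxb*, *Hoxc* or *Hoxd* followed by a number, and 10 of the 25393 listed genes met that rule. Values are given for 9 of them. The mouse annotation GENCODE M21 holds 39 such genes. The other 29 were not listed in the table used here, in which the listed gene with the fewest reads had 2 in all 4 libraries together.

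The cultures came from cortex and hippocampus of C57BL/6 pups at postnatal day 1, with 2 mice per isolation, and were untreated. Cells were grown for about 7 days, shaken at 260 rpm and kept for another 24 h. 2 libraries were labelled wild type (WT) and 2 were labelled tet1-/- (KO), which the study's methods describe as a constitutive *Tet1* knockout. The study describes its RNA-seq samples as biological repeats and gives a larger number per genotype than was analysed here. Whether a repeat was a separate isolation of pups is not stated, so all p-values measure the spread between these libraries, which may be technical in part.

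The libraries held 18749610 to 22673555 reads on genes. The transcript of the targeted gene was no lower in the KO-labelled libraries. *Tet1*, which encodes an enzyme that oxidizes 5-methylcytosine, had 266 and 121 normalized counts in WT against 173 and 463 in the KO-labelled libraries, where a normalized count is the read count divided by the size factor of its library (log2 fold change 0.66, SE 0.65, limma with Benjamini-Hochberg adjustment, adjusted p = 0.691). The groups overlapped, and which exons the deletion removes is not given in the sources used here, so these reads do not check the labels and the second group is called the libraries labelled KO throughout. All 10 astrocyte markers were read in every library, with summed levels of 1901 and 1773 FPKM in WT against 3028 and 477 FPKM in the KO-labelled libraries. *Gfap*, an intermediate filament gene, made up the largest part, with 687, 765, 1871 and 117 FPKM in the same order. Of the 10, 5 lay below WT without overlap and 1 above, against 25.4% and 22.5% of all tested genes. Their median log2 fold change was −0.73 beside −0.07 over all tested genes, with 0 called by limma. FPKM is the read count scaled to the length of the gene and to the reads on genes of the library.

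Hox genes encode homeodomain transcription factors that give cells of the trunk and hindbrain their position along the head to tail axis. They lie in 4 clusters, and their order within a cluster matches their order along the body, so that low paralogue numbers mark the hindbrain and high numbers the posterior trunk. The embryonic forebrain, the source of cortex and hippocampus, forms in front of the Hox domains, and its Hox clusters are known to be held silent by Polycomb proteins. TALE homeodomain proteins are cofactors of Hox proteins on DNA, and retinoic acid and Cdx factors act upstream of the clusters.

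The homeobox, the part of the gene that encodes the DNA-binding homeodomain, is alike enough between members that the assignment of single reads matters here. It is shown for *Hoxa4* and *Hoxc4*, members of the same paralogue group in different clusters. Each sequence is 180 bases of the GENCODE M21 transcript, 5′ to 3′, on GRCm38, at chr6:52190483-52190662 on the minus strand for *Hoxa4* and chr15:103035663-103035842 on the plus strand for *Hoxc4*. Capitals mark the 38 positions at which the sequences differ.
Hoxa4: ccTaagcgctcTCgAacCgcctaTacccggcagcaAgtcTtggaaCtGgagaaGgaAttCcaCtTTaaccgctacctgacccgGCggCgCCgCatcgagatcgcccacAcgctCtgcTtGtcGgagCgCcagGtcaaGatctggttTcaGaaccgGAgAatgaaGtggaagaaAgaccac
Hoxc4: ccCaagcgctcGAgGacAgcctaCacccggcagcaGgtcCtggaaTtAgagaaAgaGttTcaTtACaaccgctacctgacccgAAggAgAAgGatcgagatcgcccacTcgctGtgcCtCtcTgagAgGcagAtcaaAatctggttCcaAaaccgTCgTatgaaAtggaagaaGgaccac
These homeoboxes were 78.9% identical. Over all 703 pairs of 38 Hox homeoboxes the identity ran from 46.1% to 93.9% with a median of 61.7%. The capitals are spread along the whole box, and the longest exact run that the transcripts of a described member shared with another member was 20 bases (*Hoxc4* and *Hoxd13*) to 52 bases (*Hoxb4* with *Hoxa6*). The read length is not given in the sources used here, and a read that fits such a run could be counted for another member.

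The clusters were almost unread. Over all 4 libraries, 32 reads fell on the 9 members. The library sums were 9 and 10 reads in WT against 1 and 12 reads in the KO-labelled libraries, which is 0.480, 0.441, 0.0483 and 0.536 CPM (reads scaled to a fixed library total). The first library labelled KO was thus the low one, and the groups overlapped. None of the 9 had at least 3 reads, the lowest count taken as detected, in every library. By contrast 49 of the 105 other listed homeobox genes (46.7%) and 13347 of the 16592 listed protein-coding genes (80.4%) did. Of the protein-coding genes in GENCODE M21, 75.4% were listed, against 25.6% of the Hox genes. The median of the mean levels was 0.0130 FPKM for the 9 Hox genes, 0.178 FPKM for other homeobox genes and 3.97 FPKM for all listed protein-coding genes.

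**Figure D1:**
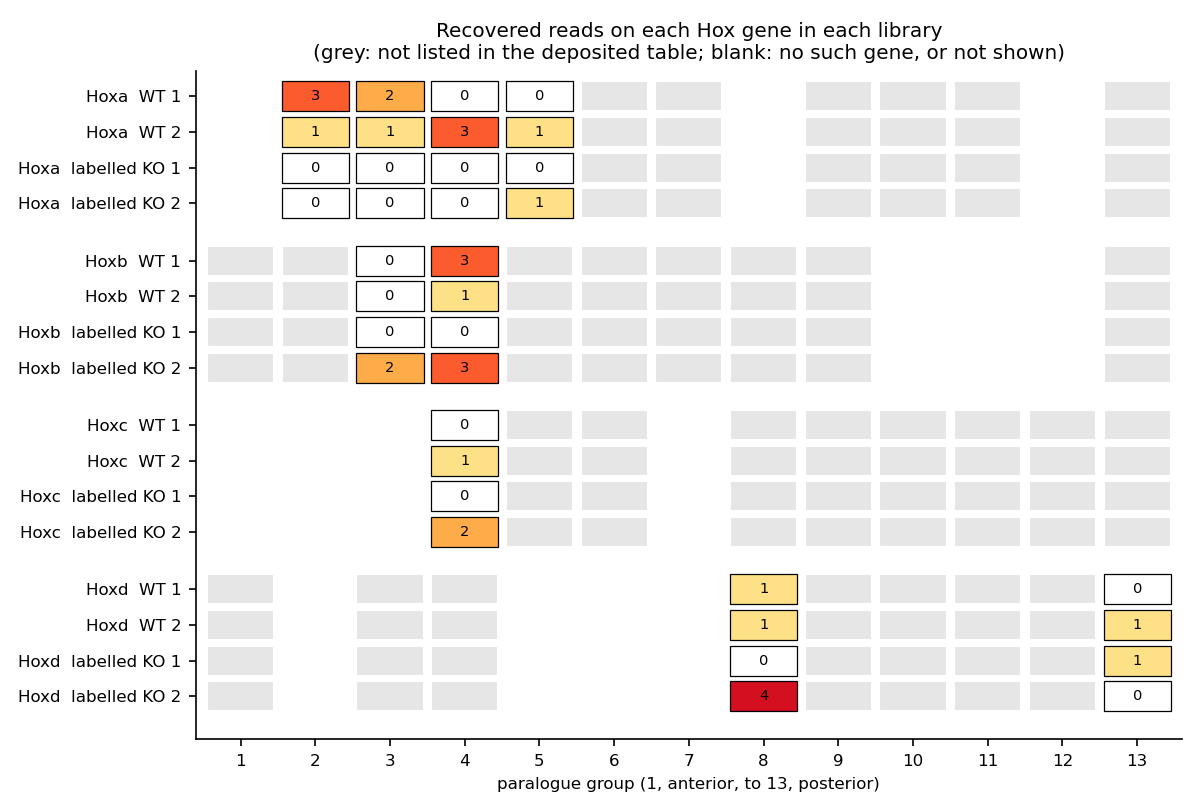
Recovered reads on each Hox gene shown, with the paralogue group on the x axis and 1 row for each cluster and library. Coloured numbered cells hold reads, white numbered cells are 0, grey cells are members not listed in the table, and the highest count is 4, on *Hoxd8* in the second library labelled KO.

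By position along the body axis, 22 of the 32 reads lay on groups 1 to 4. That is near the share of the described members in these groups, 6 of 9. Groups 1 to 4, which mark hindbrain and neck levels, had 6 of 12 members described. These had 8 and 7 reads in WT against 0 and 7 reads in the KO-labelled libraries. Groups 5 to 8 had 2 of 11 members listed, with 1 and 2 reads in WT against 0 and 5 in the KO-labelled libraries. Groups 9 to 13, which mark posterior trunk, limb and tail, had 1 of 16 members listed, with 0 and 1 reads in WT against 1 and 0 in the KO-labelled libraries. By cluster, 12 reads fell on 4 *Hoxa* genes, 9 on 2 *Hoxb* genes, 3 on 1 *Hoxc* gene and 8 on 2 *Hoxd* genes. The *Hoxd* reads all lay on *Hoxd8* and *Hoxd13*, outside the anterior groups. The grid of reads shows that 7 of the 9 genes lie in groups 2 to 5 and that grey cells fill its right side apart from *Hoxd8* and *Hoxd13*. Grey cells also lie on its left side, such as those of *Hoxb1* and *Hoxd1*.

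With 3 reads as the lowest count taken as detected, the set differed from library to library. WT replicate 1 had 2 detected members, *Hoxa2* and *Hoxb4*. WT replicate 2 had *Hoxa4* alone. The first library labelled KO had none, with 1 member read at all, and the second had *Hoxb4* and *Hoxd8*. Members with any read came to 4 and 8 in WT against 1 and 5 in the KO-labelled libraries. The detection limit of 3 reads equals 2.70 to 3.21 normalized counts depending on the library. The exact Poisson 95% interval ran from 1.09 to 10.2 reads for the highest count, 4 on *Hoxd8*, and from 0 to 3.69 reads for a count of 0, so that these intervals overlapped. These limits and intervals cover counting error only.

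The *Hoxa* members described pattern successively more posterior hindbrain and neck segments. *Hoxa2* (ENSMUSG00000014704, chr6:52162417-52164831, mm10), which patterns the second branchial arch, had 3 and 1 reads in WT against 0 and 0 in the KO-labelled libraries. *Hoxa3* (chr6:52169062-52213336), which acts in the third arch, had 2 and 1 reads in WT against 0 and 0 in the KO-labelled libraries. For both, the libraries labelled KO lay below the WT libraries by 1 read at the closest. *Hoxa4* (chr6:52189671-52191753) had 3 reads in WT replicate 2 and 0 in the other libraries. *Hoxa5* (chr6:52201754-52204587), an anterior trunk gene, had 1 read in WT replicate 2 and 1 in the second library labelled KO. These 4 genes lie on the minus strand, and *Hoxa2* and *Hoxa3* share exon sequence with the same-strand model *Gm28308*. *Hoxa3* and *Hoxa4* also overlap exons of antisense genes. Whether the counting used strand is not given in the sources used here, so reads of those overlaps cannot be assigned to either strand.

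The members of the *Hoxb* and *Hoxc* clusters had at most 3 reads in a library. *Hoxb4* (chr11:96318267-96321638, plus strand), known for its role in blood stem cells as well as in the neck, had 3 and 1 reads in WT against 0 and 3 in the KO-labelled libraries. *Hoxb3* (chr11:96323326-96347930, plus strand) had 2 reads in the second library labelled KO and 0 elsewhere. Its exons overlap those of the antisense gene *Hoxb3os*, so reads of that overlap cannot be assigned to either strand. *Hoxc4* (chr15:103018934-103036852, plus strand) had 0 and 1 reads in WT against 0 and 2 in the KO-labelled libraries. For these 3 genes the groups overlapped.

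The remaining pair are *Hoxd* genes. *Hoxd8* (chr2:74704615-74707933, plus strand), a trunk gene, had 1 and 1 reads in WT against 0 and 4 in the KO-labelled libraries. *Hoxd13* (chr2:74668310-74671599, plus strand), the last gene of its cluster, which patterns digits and the genital region, had 0 and 1 reads in WT against 1 and 0 in the KO-labelled libraries. It was the only listed member of groups 9 to 13.

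The levels of regional genes were set beside those of the Hox genes. All 9 forebrain genes examined had at least 3 reads in every library, and their summed levels were 119 and 108 FPKM in WT against 137 and 123 FPKM in the KO-labelled libraries. *Lhx2*, a regulator of cortex and hippocampus, had 35.4 and 28.9 FPKM in WT against 53.6 and 44.2 FPKM in the KO-labelled libraries. Within each library the level of *Lhx2* was at least 139.7 times the sum of the 9 Hox members. *Nr2e1*, a nuclear receptor of forebrain progenitors, had a mean level of 30.3 FPKM and was at least 125 times that sum in each library. Both lay far above every Hox value of the same library. Of the 9 forebrain genes, 2 lay below WT without overlap and 4 above, against 25.4% and 22.5% of all tested genes. Their median log2 fold change was 0.27 beside −0.07 over all tested genes. The 2 below were *Six3* and *Otx2*. *Six3*, a regulator of the anterior forebrain, had 5.73 and 9.13 FPKM in WT against 1.77 and 2.51 FPKM in the KO-labelled libraries (log2 fold change −1.72, SE 0.39, limma with Benjamini-Hochberg adjustment, adjusted p = 0.208, DESeq2 adjusted p = 0.0144). *Otx2*, which specifies forebrain and midbrain, had 64 and 239 reads in WT against 4 and 49 in the KO-labelled libraries (−3.00, SE 1.19, limma adjusted p = 0.364).

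Of 9 genes of hindbrain and spinal cord outside the Hox clusters, 7 were listed, and 4 had at least 3 reads in every library. *Lbx1* and *Ptf1a*, which specify hindbrain and spinal neurons, were not listed, and *Atoh1*, *En1* and *Gbx2* were at 0 in at least 1 library. The summed levels of this list were 1.59 and 2.81 FPKM in WT against 1.93 and 2.89 FPKM in the KO-labelled libraries. The Hox sums were lower still, at 0.190, 0.207, 0.0195 and 0.197 FPKM. Fewer cells that express a gene and less RNA of it per cell cannot be told apart in these bulk samples.

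**Figure D2:**
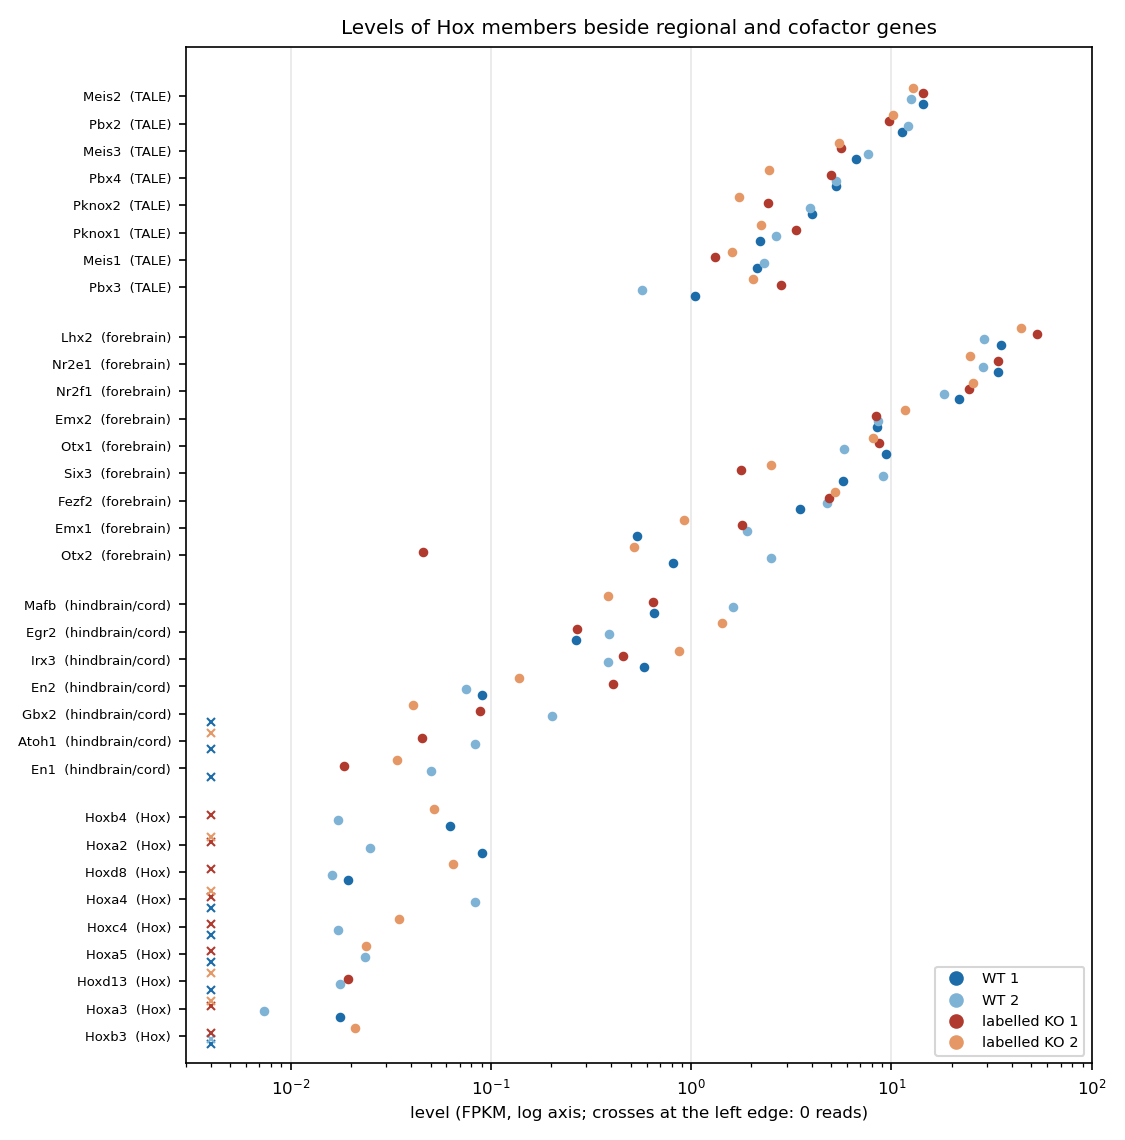
Levels in FPKM on a log axis for 9 Hox members, 7 hindbrain and spinal cord genes, 9 forebrain genes and 8 TALE cofactors, with 1 point per library and crosses at the left edge for 0 reads. Every Hox point lies below 0.1 FPKM, and *Lhx2* lies between 28.9 and 53.6 FPKM.

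The comparison of the libraries labelled KO with WT asked whether the Hox genes differed with the *Tet1* genotype. limma was fitted to log2(normalized count + 1) for every gene that averaged at least 1 normalized count, 22094 in all, and 3 of the 9 members were among them. None of the 3 was called after Benjamini-Hochberg adjustment, and none had an unadjusted p under 0.05, the lowest being 0.116. Over all tested genes limma called 0, a background of 0%, while 4.54% of genes were higher and 9.18% lower at an unadjusted p under 0.05, 3032 genes together. edgeR called 0 of the same 3 members, and DESeq2 gave an adjusted p to 0 of the 9, with 0 at an unadjusted p under 0.05 in either. With 2 libraries a group, an exact two-sided permutation test of a single value cannot go below p = 0.33.

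The tested members averaged no more than 3 reads in either group, so their fitted differences depend on the pseudocount and are not given as folds. *Hoxa2* averaged 2.06 ± 1.61 normalized counts in WT and 0 in both libraries labelled KO, *Hoxb4* 2.06 ± 1.61 and 1.35 ± 1.91, and *Hoxd8* 0.993 ± 0.104 and 1.80 ± 2.55 (SD, n = 2 each). On the log2(normalized count + 1) scale the limma difference was −1.51 (SE 0.80, Benjamini-Hochberg adjusted p = 0.469) for *Hoxa2*, −0.56 (SE 0.99, adjusted p = 0.832) for *Hoxb4* and 0.11 (SE 0.99, adjusted p = 0.973) for *Hoxd8*. Each difference was smaller than 2 of its standard errors. Leaving out a single library moved *Hoxb4* to 0.0038 (without WT replicate 1) or 0.38 (without the first library labelled KO), and *Hoxd8* to 1.21 without the first library labelled KO.

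Among the 9 members, the libraries labelled KO lay below both WT libraries for *Hoxa2* and *Hoxa3*, of which the first was among the 3 tested, and above them for none. Over all tested genes 25.4% lay below and 22.5% above. The log2 ratio of the mean summed Hox level in the libraries labelled KO to that in WT was −0.87. It was −3.35 without the second library labelled KO and −0.0108 without the first, so that the value rested on which of these libraries was kept.

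The levels of markers of other cell types also differed between the libraries. The summed level of 10 microglial markers was 24.6 and 45.9 FPKM in WT against 3.42 and 5.24 FPKM in the KO-labelled libraries, and for 9 of the 10 the libraries labelled KO lay below WT, against 25.4% of all tested genes. limma and edgeR called 0 of the 10 after adjustment, with 7 lower at an unadjusted p under 0.05 in limma (9.18% over all tested genes). DESeq2 called 6 lower, against 818 of 25393 genes called lower in all, and *P2ry12* was at 0 in a library. The mural list moved in both directions. *Acta2*, a smooth muscle actin gene, made up most of its summed level and had 55.6 and 239.8 FPKM in WT against 564 and 1396 FPKM in the KO-labelled libraries (log2 fold change 2.99, SE 0.81, limma with Benjamini-Hochberg adjustment, adjusted p = 0.252). *Cspg4*, *Rgs5* and *Myh11* lay below WT without overlap, with log2 fold changes of −2.35, −1.52 and −1.20, and the median of the 7 tested mural genes was −1.20. limma called 0 of them. Meningeal fibroblast markers summed to 9.65, 21.7, 15.6 and 17.4 FPKM, endothelial markers to 0.607, 1.21, 1.57 and 1.55 FPKM, oligodendrocyte lineage markers to 151, 223, 370 and 230 FPKM and neuronal markers to 19.3, 23.4, 29.0 and 29.8 FPKM in the same order. *Cldn5* and *Emcn*, which define endothelium, were not listed. The part of these cells in the Hox counts was not tested.

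A non-coding gene of the *Hoxa* cluster had more reads than any of the 9 members. *Hotairm1* (chr6:52156902-52162119, plus strand) had 14 and 38 reads in WT against 44 and 18 in the KO-labelled libraries. Its levels were 0.728, 1.64, 2.07 and 0.784 FPKM, and their mean was 8.52 times the mean of the Hox sums. The groups overlapped, with a log2 fold change of 0.27 (SE 0.82, limma with Benjamini-Hochberg adjustment, adjusted p = 0.911). *Hotairm1* had its most reads in the first library labelled KO, in which the 9 members had the fewest.

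Of 17 Hox-associated non-coding genes, 3 were listed. *Hoxaas2* had 1 and 2 reads in WT against 0 and 0 in the KO-labelled libraries, and *Hoxaas3* had 1 and 1 reads in WT against 2 and 0 in the KO-labelled libraries. *Hotair*, *Hottip* and the microRNA genes of the clusters, such as *Mir10a* and *Mir196b*, were not listed. Of 2 short models on the same strand, *Gm27861* lies within the limits of *Hotairm1* and *Gm27477* just beside it. They had 2, 6, 0 and 4 reads and 0, 0, 5 and 1 reads in the order WT, then labelled KO.

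**Figure D3:**
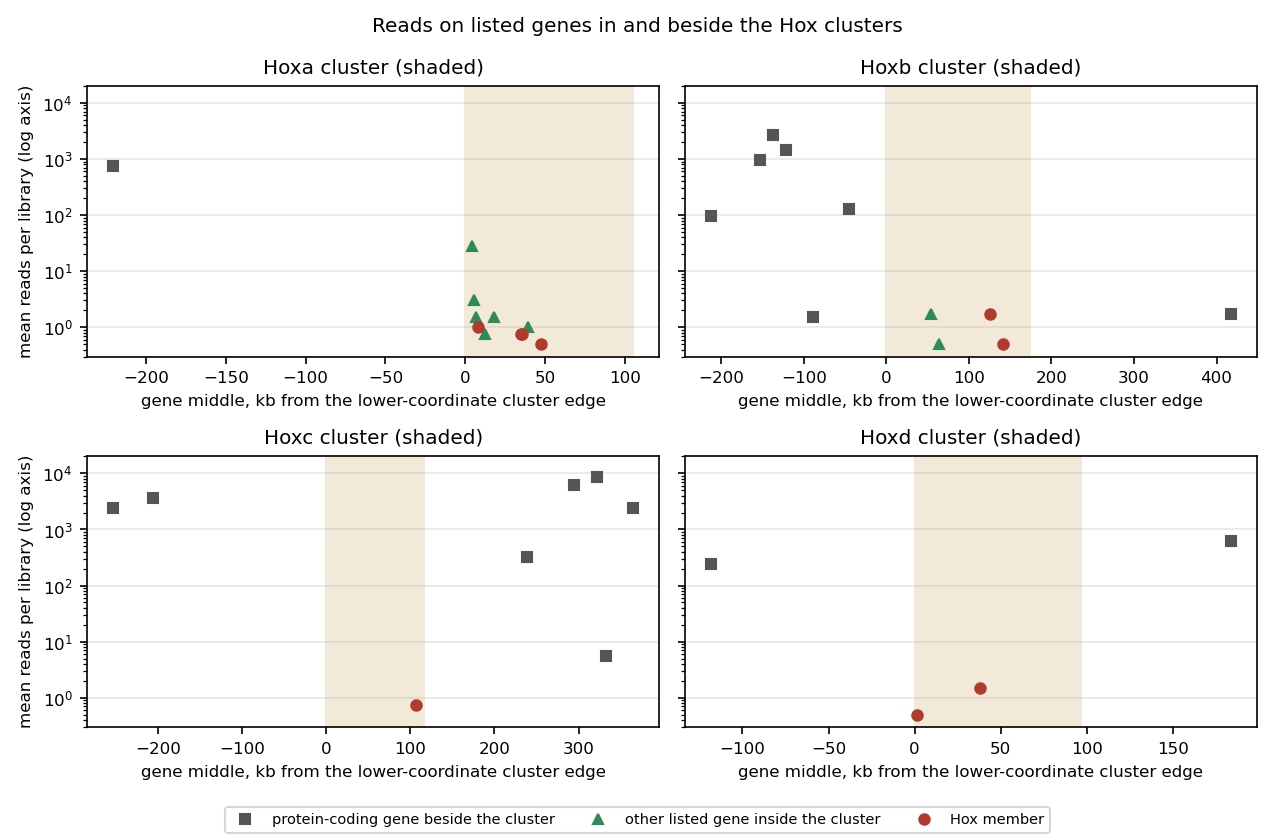
Mean reads per library on a log axis against the distance of each gene's middle from the lower-coordinate edge of its cluster in kb, for listed Hox members, other listed genes inside the clusters (shaded) and protein-coding genes within 250 kb outside. Every point inside a cluster except *Hotairm1* lies below 10 reads, and genes such as *Cbx5* and *Skap2* lie far above them.

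Most genes just outside the clusters had many more reads. *Skap2*, beside *Hoxa*, had 748 and 1206 reads in WT against 826 and 262 in the KO-labelled libraries. *Cbx5*, which encodes a heterochromatin protein and lies beside the *Hoxc* cluster, had 4284, 5282, 6621 and 8583 reads, and *Mtx2*, beside *Hoxd*, had 373, 575, 689 and 815 reads in the same order. *Calcoco2* and *Skap1*, beside *Hoxb*, were exceptions with 3, 3, 0 and 0 reads and 2, 1, 1 and 3 reads. The low values of the map thus lie inside the shaded clusters apart from those genes and *Nfe2*, which had 7, 10, 5 and 0 reads. *Ttll6*, beside *Hoxb*, had the largest difference of these neighbours, with 273 and 198 reads in WT against 32 and 4 in the KO-labelled libraries (log2 fold change −4.18, SE 1.04, limma with Benjamini-Hochberg adjustment, adjusted p = 0.229, DESeq2 adjusted p = 0.00271).

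Promoters rich in CpG, the dinucleotide that DNA methylation and TET enzymes act on, are as a rule active in many cell types. The 250 bases before the start of a gene were searched for CG, which reads the same on both strands and was present in 92.1% of 32851 RefSeq promoters. An entry was held for 22 of the 39 Hox genes, 7 of them listed, and all 22 contained it. Shown are the promoter of *Hoxa2* (chr6:52164832-52165081, minus strand), that of *Hoxd13* (chr2:74667975-74668224, plus strand), the listed member with the most CpG, and the first of 2 entries of *Lhx2* (chr2:38339031-38339280, plus strand) as a read forebrain gene. Sequences are from RefSeq on GRCm38.p6, with every CG in capitals.
Hoxa2: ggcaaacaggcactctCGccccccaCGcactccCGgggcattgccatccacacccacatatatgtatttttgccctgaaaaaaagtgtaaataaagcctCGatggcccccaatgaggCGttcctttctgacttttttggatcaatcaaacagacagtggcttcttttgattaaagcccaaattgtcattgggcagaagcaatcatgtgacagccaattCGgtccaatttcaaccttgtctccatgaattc
Hoxd13: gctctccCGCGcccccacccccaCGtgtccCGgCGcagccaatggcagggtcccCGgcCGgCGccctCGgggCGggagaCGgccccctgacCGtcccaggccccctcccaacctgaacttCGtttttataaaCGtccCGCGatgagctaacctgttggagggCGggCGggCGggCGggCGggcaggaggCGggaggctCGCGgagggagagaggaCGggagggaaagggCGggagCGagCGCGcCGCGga
Lhx2: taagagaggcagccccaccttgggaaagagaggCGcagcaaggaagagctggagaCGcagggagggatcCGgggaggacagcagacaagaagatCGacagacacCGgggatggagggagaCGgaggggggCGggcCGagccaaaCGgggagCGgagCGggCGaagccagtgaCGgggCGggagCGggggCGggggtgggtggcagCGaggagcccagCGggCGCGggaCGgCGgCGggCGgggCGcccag
The window of *Hoxa2* held 6 CpG at 46.4% GC, that of *Hoxd13* 31 at 74.4% GC and that of *Lhx2* 25 at 72.8% GC. *Hoxd13* had at most 1 read in a library, while *Lhx2* had at least 28.9 FPKM.

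The 22 Hox genes, which had 24 promoter entries and were each taken by the entry with the most CpG, held 3 to 35 with a median of 13. Over all 32851 entries, without that choice, the median was 6 and 31.5% held at least 13, so these measures are not fully alike. Other genes were also taken by their entry with the most CpG. Of 7565 other listed protein-coding genes with at least 13 CpG, 7103 (93.9%) had at least 3 reads in every library. The median level of the 7565 was 6.68 FPKM. Of the 12 Hox genes with at least 13 CpG, 4 were listed and 0 had at least 3 reads in every library. The windows were matched by letters only and carry no measure of methylation.

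The TALE cofactors, which bind DNA beside Hox proteins and also act without them, were read in every library for all 8 genes examined. *Meis2* had a mean level of 13.5 FPKM, at least 60.4 times the Hox sum in each library. None of the 8 was called by limma, edgeR or DESeq2. At an unadjusted p under 0.05 in limma, 1 was higher and 1 lower (4.54% and 9.18% over all tested genes). The groups did not overlap for 1 gene above WT and 4 below (22.5% and 25.4% of all tested genes), with a median log2 fold change of −0.24 beside −0.07 over all tested genes. *Pbx3* had 128 and 72.6 normalized counts in WT against 379 and 251 in the KO-labelled libraries (log2 fold change 1.67, SE 0.48, limma adjusted p = 0.269). *Pknox2* had a log2 fold change of −0.89 (SE 0.34, adjusted p = 0.358) and *Meis1* of −0.56 (SE 0.32, adjusted p = 0.495) in the same limma fit.

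Of 14 genes that act upstream of the Hox clusters, 11 were listed and 9 tested. *Cdx1*, *Cdx2* and *Cdx4*, which switch on central and posterior Hox genes in the embryo, were not listed. limma called 0 of the 9, with 0 higher and 2 lower at an unadjusted p under 0.05 (4.54% and 9.18% over all tested genes). edgeR called 0, and DESeq2 called *Cyp26b1* alone, as lower, against 818 of 25393 genes called lower in all. *Cyp26b1*, which degrades retinoic acid, had 456 and 257 normalized counts in WT against 68.5 and 60.4 in the KO-labelled libraries (log2 fold change −2.39, SE 0.46, limma adjusted p = 0.170, DESeq2 adjusted p = 0.000622). *Rarb*, a retinoic acid receptor and target, had a log2 fold change of −1.79 (SE 0.71, limma adjusted p = 0.363). *Aldh1a3*, which makes retinoic acid, had 24.5 and 23.0 normalized counts in WT against 30.0 and 198 in the KO-labelled libraries (1.67, SE 0.97, limma adjusted p = 0.502). The median of the 9 was −0.58 beside −0.07 over all tested genes, and 1 was above and 4 were below WT without overlap, against 22.5% and 25.4% of all tested genes.

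Polycomb proteins, which silence Hox genes, and Trithorax proteins, which keep them active, were read throughout. All 30 Polycomb genes had at least 3 reads in every library. limma called 0, with 0 higher and 1 lower at an unadjusted p under 0.05 (4.54% and 9.18% over all tested genes). edgeR called 0, and DESeq2 called *Cbx7* alone, as lower, against 818 of 25393 genes called lower in all. The groups did not overlap for 10 of the 30 that lay above WT and 5 that lay below, against 22.5% and 25.4% of all tested genes, and the median log2 fold change was 0.19. *Cbx7*, a reader of trimethylated H3K27, had 2408 and 1825 normalized counts in WT against 513 and 143 in the KO-labelled libraries (log2 fold change −2.95, SE 0.64, limma adjusted p = 0.195, DESeq2 adjusted p = 0.00246). The methyltransferase genes *Ezh2* and *Ezh1* had log2 fold changes of 1.18 (SE 0.49, limma adjusted p = 0.378) and −0.73 (SE 0.38, limma adjusted p = 0.465).

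None of the 12 genes of the Trithorax group and the H3K27 demethylases was called by limma, edgeR or DESeq2, and 0 had an unadjusted p under 0.05 in limma. Without overlap 3 were above WT and 0 below, against 22.5% and 25.4% of all tested genes, with a median log2 fold change of 0.16. These were *Dpy30* (0.70, SE 0.35, limma adjusted p = 0.448), *Wdr5* (0.47, SE 0.29, limma adjusted p = 0.519) and *Ash2l* (0.24, SE 0.29, limma adjusted p = 0.744), which encode subunits shared by H3K4 methyltransferases. The plot of fold changes by list has *Cbx7* as the point farthest from 0.

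**Figure D4:**
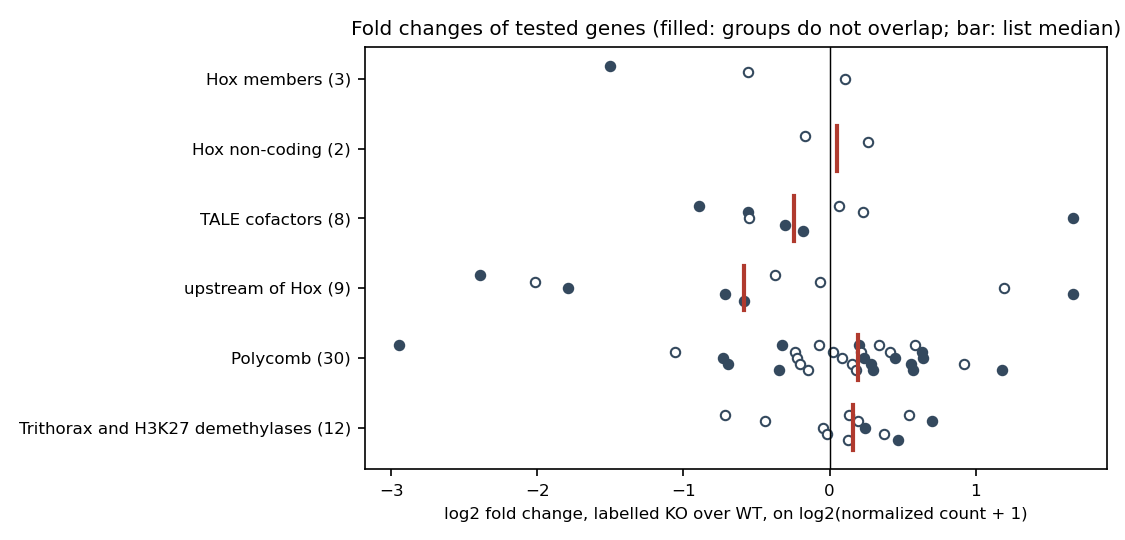
Log2 fold change of the libraries labelled KO over WT on log2(normalized count + 1), with 1 point per tested gene, filled where the groups do not overlap, and a bar at the median of each list other than the Hox members. The 3 Hox points run from −1.51 to 0.11, and *Cbx7* at −2.95 and *Cyp26b1* at −2.39 lie farthest left.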

How the data were processed

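The authors made RNA-seq libraries from cultured astrocytes, filtered paired-end reads and aligned them to mm10. The 2 WT and 2 KO-labelled libraries with values in the table were used here. The aligner, counting program, annotation release and strand setting are not given in the sources used here. The deposited signal per gene and library is a read count divided by a size factor (0.934 to 1.11), although it was named FPKM, and 100% of values came out as whole reads within 0.001. The other deposited columns used hold gene start, end and length. The deposited group means, fold changes and p-values were not used.

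FPKM was computed from recovered reads, gene length and the reads on genes. R 4.3.3 and limma 3.58.1 were used to compare genotypes on log2(normalized count + 1), with eBayes set to follow the variance trend, for genes averaging at least 1, without a block and with Benjamini-Hochberg adjustment over all of them. edgeR 4.0.16 and DESeq2 1.42.0 on recovered reads, other pseudocounts, filters and scalings, a replicate block and each library left out were alternatives. The limma and edgeR fits were tested on simulated counts, and the DESeq2 fit was not. Plots were drawn with matplotlib 3.10.9, and tables with pandas 2.3.3, scipy 1.17.1 and numpy 2.4.6 under Python 3.11.15. Of the identifiers, 25367 were in GENCODE M21, 24654 with the same start and end.

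1 listed member and several genes of the lists are not reported here, and the sums and counts of members leave that member out, so they cover fewer genes than planned. The members and lists were chosen with earlier results of these data known. Every other listed member was named, fitted values were given for the tested ones, and from each pathway list the 3 genes with the largest absolute fold change among those whose groups do not overlap. *Ttll6*, *Skap2*, *Cbx5*, *Mtx2*, *Calcoco2*, *Skap1*, *Nfe2*, *Gm27861*, *Gm27477*, *Aldh1a1* and *Aldh1a2* and the regional and cell type marker genes described singly were chosen after their values were seen. Replicates differed by more than sampling noise, with a median chi-square of 6.48 in WT and 19.7 in the libraries labelled KO against 0.455 for noise alone.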

Additional observations from a re-analysis of the deposited data

How the results depend on the processing

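No Hox member was called under any alternative that kept all 4 libraries. In these, 2 to 9 members could be tested, except that none remained at a mean minimum of 5. DESeq2 fitted 9 members but gave an adjusted p to 0 of them, so it could call none. Over all genes 0 were called in limma and edgeR while DESeq2 called 1106 (288 higher, 818 lower), a difference whose cause was not tested. The genes at an unadjusted p under 0.05 numbered 3032, and 1029 to 4925 with a library left out. The *Hoxa2* difference ran from −4.20 to −1.51 over 9 alternatives (limma and edgeR adjusted p 0.380 to 0.707). *Hoxd8*, at 0.11 as reported, turned to −0.84 with a pseudocount of 0.1 and was 1.21 without KO replicate 1. *Hoxb4* ran from −1.51 to 0.38 with a library left out, being 0.0038 without WT replicate 1 and 0.38 without KO replicate 1. Members detected per library, given as 2 and 1 for WT and then 0 and 2, were 4, 8, 1 and 5 at 1 read and 0 in all at 10 reads and at 0.1 FPKM. The log2 ratio of the summed Hox level was −0.87, and −3.35 (without KO replicate 2) to −0.0108 (without KO replicate 1) with a library left out. It was −0.95 without *Hoxb4*, the described member with the highest mean, −0.66 with normalized counts and −0.88 with FPKM scaled by the deposited size factors, an alternative chosen after seeing the data. Scaling to equal sums gave no separate value, since FPKM is already scaled to the library total. Quantile normalization moved the median of all genes from −0.07 to 0.07.

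With the replicate number as a block, limma called 0 genes, 2583 had an unadjusted p under 0.05, and the lowest p of a Hox member was 0.182. Same-numbered libraries did not deviate together (correlation −0.08 over 22094 genes), and nothing says that the numbers pair them. No member described had more than 4 reads in a library, and this depth limits every comparison of a single member.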

Other observations

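Other homeobox genes were read at levels well above those of the Hox genes. The highest mean levels were those of *Cers2* (44.5 FPKM), a ceramide synthase gene that carries a homeobox, and *Lhx2* (40.5 FPKM). *Hopx*, a homeodomain-only gene, had 20.8 and 16.3 FPKM in WT and 28.1 and 4.48 FPKM in the libraries labelled KO. These genes were chosen after their values were seen.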
